A study of Arabidopsis thaliana with 21 samples.

Results

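The regions described here are the WT H2A.Z sites that were only partly called in mbd9-1 mutant seedlings: 2620 of 7428 WT H2A.Z sites, or 35.3% of them. A WT H2A.Z site was built from WT H2A.Z peaks with at least 50% of their own length inside a peak of another WT library, and pooled peaks sharing 200 bp or more were joined into 1 site. A library was said to call a site when its peaks covered at least 50% of it, and the partly called sites were selected on the mbd9-1 peak lists themselves, as the sites called in exactly 1 or 2 of the 3 mbd9-1 H2A.Z libraries. The remaining sites split into 4405 that no mbd9-1 library called and 403 that all 3 of them called. The number of calls and the share of each site under an mbd9-1 peak are therefore given as descriptions with no test.

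The study immunoprecipitated chromatin from 6-day-old Arabidopsis thaliana seedlings of the Col-0 ecotype and sequenced it. The mutant plants carried mbd9-1, an allele of MBD9, and the others were wild type (WT). Peak lists of 3 mbd9-1 H2A.Z libraries, 3 WT H2A.Z libraries and 3 WT libraries for acetylated histone H4 (H4Ac) were used. The arp6-1 libraries, the H4Ac libraries of the mutants and the inputs were not analysed here. The 3 libraries of a group were biological replicates, so a p-value speaks of the spread between these libraries. Tissue identity could not be checked against marker genes in lists of positions.

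H2A.Z is a variant of histone H2A that the SWR1 chromatin remodelling complex exchanges into nucleosomes. In plant genes it is concentrated in the first nucleosomes after the transcription start site (TSS), and in genes that respond to the environment it can also spread over the body. MBD9 is a methyl-CpG-binding-domain family protein that interacts with SWR1, and ARP6 is a subunit of that complex.

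The lists gave peak positions in the TAIR10 genome without height, count or score, so the depth behind a call is unknown and a site that is not called may still carry signal below the caller's limit. The H2A.Z lists held 5215 to 5733 peaks in mbd9-1 and 6263 to 9260 in WT, and the H4Ac lists 10439 to 12030. Over all WT sites, mbd9-1 replicate 1 called 23.3%, replicate 2 called 34.5% and replicate 3 called 8.7%. The replicate 3 list stood apart, because 64.4% of its peaks had the narrowest width, 381 bp, so the main comparisons are also given without it.

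The sequences below are shown because they hold the border between the kept and the bare part of a site, the feature on which the results turn. Each line has 300 bases around the edge of the peak in mbd9-1 replicate 1, 150 on each side, read 5′ to 3′ on the strand of the gene from the RefSeq TAIR10.1 assembly. Bases under that peak are in capitals, and bases of the WT site beside it are in lower case. In the first 3 the downstream part was kept. The window of TMKL1, a receptor-like kinase gene, is chr3:9003722-9004021 on the plus strand, all coding. That of VEL2, a gene of the VIN3-like family, is chr2:8178096-8178395 on the plus strand, with 263 coding and 37 intronic bases. That of CPL5, a gene for an RNA polymerase II C-terminal domain phosphatase-like protein, is chr3:6811335-6811634 on the minus strand, all coding.
TMKL1: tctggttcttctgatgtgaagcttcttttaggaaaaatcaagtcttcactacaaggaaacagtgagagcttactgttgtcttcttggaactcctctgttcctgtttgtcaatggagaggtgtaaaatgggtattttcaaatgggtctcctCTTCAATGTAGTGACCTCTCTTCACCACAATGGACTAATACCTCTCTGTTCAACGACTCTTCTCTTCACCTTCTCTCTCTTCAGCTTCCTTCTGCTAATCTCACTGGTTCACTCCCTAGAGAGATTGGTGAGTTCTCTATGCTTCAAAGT
VEL2: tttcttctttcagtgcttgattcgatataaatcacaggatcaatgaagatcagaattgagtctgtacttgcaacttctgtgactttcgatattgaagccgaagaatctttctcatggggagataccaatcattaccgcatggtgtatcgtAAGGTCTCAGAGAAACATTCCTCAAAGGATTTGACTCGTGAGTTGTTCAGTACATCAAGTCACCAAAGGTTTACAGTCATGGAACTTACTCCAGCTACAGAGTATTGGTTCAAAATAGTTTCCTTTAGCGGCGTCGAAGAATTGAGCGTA
CPL5: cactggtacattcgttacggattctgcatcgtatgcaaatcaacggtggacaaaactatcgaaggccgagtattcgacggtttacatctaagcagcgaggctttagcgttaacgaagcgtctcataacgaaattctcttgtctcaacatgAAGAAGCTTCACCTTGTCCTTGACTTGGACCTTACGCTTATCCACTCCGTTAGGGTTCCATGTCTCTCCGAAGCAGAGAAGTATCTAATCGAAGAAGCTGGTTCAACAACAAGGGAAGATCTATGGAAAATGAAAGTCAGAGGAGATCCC

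In the next 3 the upstream part was kept. The window of FANCM, a helicase gene, is chr1:13090277-13090576 on the plus strand, with 229 coding and 71 intronic bases. That of EB1C, a gene for a protein that binds microtubule ends, is chr5:26841050-26841349 on the minus strand, with 62 coding and 238 intronic bases. That of scpl22, a serine carboxypeptidase-like gene, is chr2:10213417-10213716 on the plus strand, with 102 coding and 198 intronic bases. GC content was higher under the peak than beside it in 5 of the 6 windows, for example 44% against 40% in TMKL1, and lower in scpl22, at 30% against 36%. The 6 windows were picked for their one-sided peaks, so they illustrate the sites and support no test.
FANCM: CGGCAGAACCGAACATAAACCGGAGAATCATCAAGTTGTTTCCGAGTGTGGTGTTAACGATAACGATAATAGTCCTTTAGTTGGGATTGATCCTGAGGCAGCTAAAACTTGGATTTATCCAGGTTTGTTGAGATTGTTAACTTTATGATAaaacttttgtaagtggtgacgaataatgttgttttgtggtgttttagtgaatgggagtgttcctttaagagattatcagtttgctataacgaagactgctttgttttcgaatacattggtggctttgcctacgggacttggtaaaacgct
EB1C: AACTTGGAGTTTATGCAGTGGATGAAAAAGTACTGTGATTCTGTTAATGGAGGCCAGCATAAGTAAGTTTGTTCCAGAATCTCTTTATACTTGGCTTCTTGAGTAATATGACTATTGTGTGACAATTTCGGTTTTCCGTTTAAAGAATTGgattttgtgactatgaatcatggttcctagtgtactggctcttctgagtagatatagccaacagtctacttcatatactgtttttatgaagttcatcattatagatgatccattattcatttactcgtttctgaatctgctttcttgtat
scpl22: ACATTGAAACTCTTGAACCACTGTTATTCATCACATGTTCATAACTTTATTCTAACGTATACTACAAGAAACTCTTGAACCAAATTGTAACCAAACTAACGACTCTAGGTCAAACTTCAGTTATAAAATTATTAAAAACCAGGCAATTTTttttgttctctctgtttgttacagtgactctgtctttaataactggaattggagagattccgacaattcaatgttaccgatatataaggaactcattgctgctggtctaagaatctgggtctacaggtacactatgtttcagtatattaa

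The largest set of partly called sites, 1095, was called in mbd9-1 replicate 2 alone, and 954 were called in replicates 1 and 2. A further 328 were called in replicate 1 alone, 110 in replicates 2 and 3, 89 in replicate 3 alone and 44 in replicates 1 and 3. The sets follow the number of sites each library called: replicate 2 called 2159 of the 2620, replicate 1 called 1326 and replicate 3 called 243. With replicate 3 left out, 1577 sites were partly called, meaning in 1 of the other 2 libraries.

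A library that did not call a partly called site mostly had no peak there at all. Among the sites it did not call, mbd9-1 replicate 1 had no base under a peak at 965 of 1294 (74.6%), replicate 2 at 369 of 461 (80.0%) and replicate 3 at 1614 of 2377 (67.9%). This is not particular to them. Sites called in no mbd9-1 library had no base under a peak more often, at 89.2%, 85.8% and 91.5% in replicates 1, 2 and 3. Where a library did call a site, its peak left part of it bare: the median share covered was 72.2% in replicate 1, 76.4% in replicate 2 and 60.5% in replicate 3. Full coverage was seen at 143, 285 and 7 sites in replicates 1, 2 and 3. Over all 2620 sites, called or not, the median share was 50.7%, 70.6% and 0% in mbd9-1 replicates 1, 2 and 3. Over all 2620 the median share under a WT peak was 95.9%, 74.8% and 85.4% in WT replicates 1, 2 and 3, but those lists were used to build the sites.

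Sites close to the 50% limit fell on both sides of it without a gap. In mbd9-1 replicate 1 the nearest sites were covered to 50% and 50.1% on the inside and 49.9% and 49.9% on the outside. Replicate 2 had 50% at both nearest sites on the inside, and 49.9% and 49.9% on the outside, while replicate 3 had 50% and 50.1%, and 49.9% and 49.9%. Between 50% and 55% lay 185, 185 and 129 WT sites in replicates 1, 2 and 3, and between 45% and 50% lay 152, 170 and 174.

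In width, the partly called sites were closer to the sites called in all 3 mbd9-1 libraries than to those called in none. Their median width was 894 bp (quartiles 691 and 1181 bp), against 957 bp for sites called in all 3 and 711 bp for sites called in none. All 3 WT libraries called 55.2% of them, against 41.1% of sites called in no mbd9-1 library and 63.5% of sites called in all 3. Width and calling both enter the rule, so these are descriptions. The centre of 2382 of the 2620 (90.9%) lay in the body of a protein-coding gene, against 88.4% of sites called in none and 89.1% of sites called in all 3. Their share of the WT sites was 34.2% to 36.1% on each of the 5 chromosomes.

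A direction could be given to 2350 of the partly called sites, those centred in protein-coding genes of a single strand. The median centre was 542 bp downstream of the TSS (quartiles 372 and 842 bp), against 517 bp for sites called in none and 537 bp for sites called in all 3. An end of a site was the outer 20% of its length on the TSS side (upstream) or on the other side (downstream), and it was kept when at least 50% of it lay under a peak of the library. The question was which end kept a peak in mbd9-1.

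At most sites a calling library kept a single end (62.3%, 59.6% and 69.7% of directed sites in mbd9-1 replicates 1, 2 and 3), and over the whole set neither end stood out in all 3 libraries. In mbd9-1 replicate 1, 390 of 1203 directed sites (32.4%, Wilson 95% interval 29.8 to 35.1) kept only the upstream end and 360 (29.9%, 27.4 to 32.6) only the downstream end. In replicate 2 it was 583 of 1937 (30.1%, 28.1 to 32.2) and 572 (29.5%, 27.5 to 31.6). In replicate 3 it was 61 of 208 (29.3%, 23.6 to 35.8) and 84 (40.4%, 33.9 to 47.2). Intervals here cover counting error only, and neighbouring sites are not independent. Both ends were kept at 22.5%, 28.3% and 5.77% of the sites in replicates 1, 2 and 3, and neither, with the peak in the middle, at 15.1%, 12.03% and 24.5%. WT libraries also kept a single end at many of the directed partly called sites they called. It was 473 of 2235, 832 of 1732 and 834 of 2034 in WT replicates 1, 2 and 3, whose lists built the sites.

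**Figure D1:**
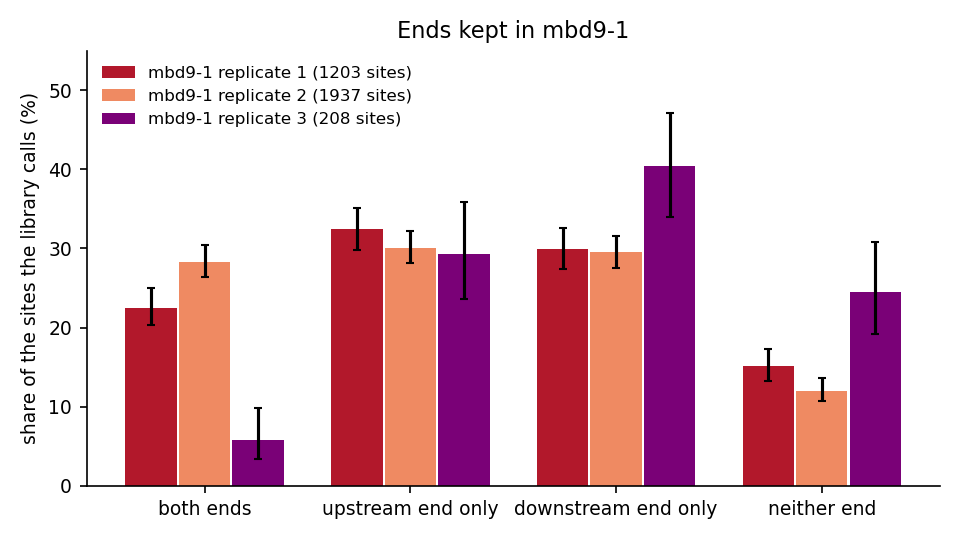
Share of the directed sites each mbd9-1 library called (y axis, %) that kept both ends, 1 end or neither (x axis), with Wilson 95% intervals. In replicates 1 and 2 the upstream-only and downstream-only bars are nearly level at 29.5% to 32.4%, and in replicate 3 the downstream-only bar is taller, at 40.4%.

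Of the one-ended sites, 48.0% (360 of 750), 49.5% (572 of 1155) and 57.9% (84 of 145) kept the downstream end in mbd9-1 replicates 1, 2 and 3, a mean of 51.8% ± 5.35 (SD, n = 3), and 52.3% when replicate 3 was left out of the choice and the mean. Sites were also chosen from 2 mbd9-1 libraries (called in exactly 1) and scored in the third, where it called them too. All of these are partly called sites called in 2 libraries. The same peaks are thus read again, and the share is no separate check. The downstream share was then 46.7% in replicate 1, 46.3% in replicate 2 and 59.8% in replicate 3, again with replicate 3 alone above 50%. For a comparison with WT libraries that had not built the sites, WT sites were built from 2 WT libraries. They were scored in the WT library left out and in the mbd9-1 libraries. Each mbd9-1 value is a mean over the 3 such sets, while each WT library was scored on 1 set. The SDs of the 2 groups therefore do not measure the same spread. These held-out sites, which are all WT sites with a direction and not only the partly called ones, gave 49.7%, 49.3% and 55.8% in mbd9-1 against 47.0%, 46.2% and 52.5% in WT. The groups overlapped, and the difference of 3.02 points had an exact two-sided permutation p of 0.4, where 3 libraries against 3 allow no p below 0.1. It was 0.893 points without mbd9-1 replicate 3 (exact permutation p of 0.9), 1.88 without WT replicate 1 and 4.83 without WT replicate 3.

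Libraries that called the same site mostly kept the same end of it. Among partly called sites that were one-ended in both of the libraries that called them, the same end was kept at 370 of 405 (91.4%, Wilson interval 88.2 to 93.7), 176 times downstream and 194 times upstream. Replicates 1 and 2 shared the end at 324 of 351, replicates 1 and 3 at 13 of 16, and replicates 2 and 3 at 33 of 38. The selection asked only for coverage of the site and not for an end. Where an mbd9-1 and a WT library were both one-ended at a partly called site, the share with the same end ran from 36.7% to 64.9% over the 9 pairs of libraries. These pairs share sites and libraries, so no test was made of them. WT peaks set the edges of the sites, so the end a WT library leaves bare depends on the other WT peaks. No same-end share between WT libraries was computed, so the 91.4% has no WT counterpart.

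Which end was kept went with where the site lay in the gene. This pattern was found after the values had been seen, and the limit of 500 bp was set then. Among partly called sites centred less than 500 bp from the TSS, 63.7% (216 of 339), 65.3% (314 of 481) and 71.6% (53 of 74) of the one-ended sites kept the downstream end in mbd9-1 replicates 1, 2 and 3. At 500 bp or more from the TSS it was 35.04% (144 of 411), 38.3% (258 of 674) and 43.7% (31 of 71). Near sites exceeded far sites by 28.7, 27.0 and 28.0 points, a mean of 27.9 ± 0.842 (SD, n = 3). In both classes the kept end was thus more often the end nearer to the 500 bp limit. With the split at 300 bp the mean difference was also 27.9 points, so the split does not locate a point in the gene.

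The largest step between neighbouring distance classes up to 1000 bp was at 500 bp in all 3 mbd9-1 libraries. Within 250 bp of the TSS the downstream share was 77.1%, 80.0% and 70% in mbd9-1 replicates 1, 2 and 3. It was 60.2%, 60.9% and 72.2% between 250 and 500 bp, 39.1%, 39.6% and 39.3% between 500 and 750 bp, and 27.8%, 31.3% and 40% between 750 and 1000 bp. Replicate 3 had only 10 one-ended sites in the last of these bins. Farther in, the shares were mostly below 50%, with the exception of replicate 3 between 1000 and 1500 bp, where 7 of 10 sites kept the downstream end. At the same sites the WT peaks kept the downstream end at 47.0%, 50.1% and 50.9% near the TSS, and 44.7%, 42.5% and 47.3% at 500 bp or more. By class, WT replicate 1 had 63.6%, 42.3% and 32.7% within 250 bp, from 250 to 500 bp and from 500 to 750 bp, and WT replicate 2 had 58.2%, 48.3% and 40.8%. Over these 3 classes both thus had a lower share in each class than in the one before, while WT replicate 3 had 47.3%, 51.8% and 47.2%. At 1500 bp or more the shares were 57.8%, 46.25% and 55.7% in WT replicates 1, 2 and 3, above those from 500 to 750 bp.

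**Figure D2:**
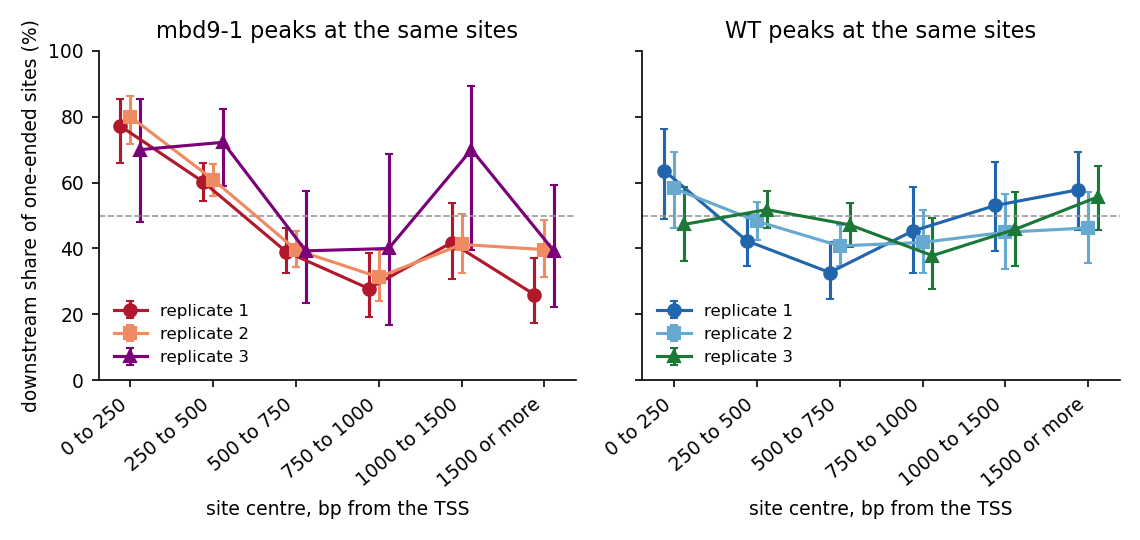
Downstream share of the one-ended partly called sites (y axis, %) by distance of the site centre from the TSS (x axis, bp), for the 3 mbd9-1 libraries on the left and the 3 WT libraries on the right, with Wilson 95% intervals and a dashed line at 50%. The mbd9-1 lines start at 70% to 80.0% and lie at 39.1% to 39.6% between 500 and 750 bp. The WT lines start at 47.3% to 63.6% and lie at 32.7% to 47.2% between 500 and 750 bp.

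The sites chosen from 2 mbd9-1 libraries and also called in the third are part of the partly called sites. Their split had the same sign. In the third library, near sites kept the downstream end at 61.0%, 64.0% and 80.0%, and far sites at 35.6%, 33.5% and 40.5%, differences of 25.4, 30.5 and 39.5 points in replicates 1, 2 and 3. These values read the same peaks again, so they are no separate check. At the held-out WT sites the near-minus-far difference was 22.6, 25.7 and 16.9 points in mbd9-1, a mean of 21.7 ± 4.48, and 13.7, 7.68 and 9.70 points in WT, a mean of 10.3 ± 3.04 (SD, n = 3 each). The WT difference thus had the same sign, and the 3 mbd9-1 values were all above the 3 WT values. The difference of 11.4 points had an exact two-sided permutation p of 0.1, the smallest that 3 against 3 can give, so it cannot pass 0.05. Without mbd9-1 replicate 3 the difference was 13.8 points. With calls at 70% coverage it was 5.29 points, with overlapping groups and an exact permutation p of 0.5. With the split at 300 bp it was 11.5 points and the exact permutation p was 0.3. Only the WT library was held out here. The mbd9-1 lists scored are those in which the pattern was seen, so these p-values are no separate check of it. Of all WT sites called in mbd9-1 replicates 1, 2 and 3, 1326 of 1729, 2159 of 2562 and 243 of 646 were partly called sites.

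**Figure D3:**
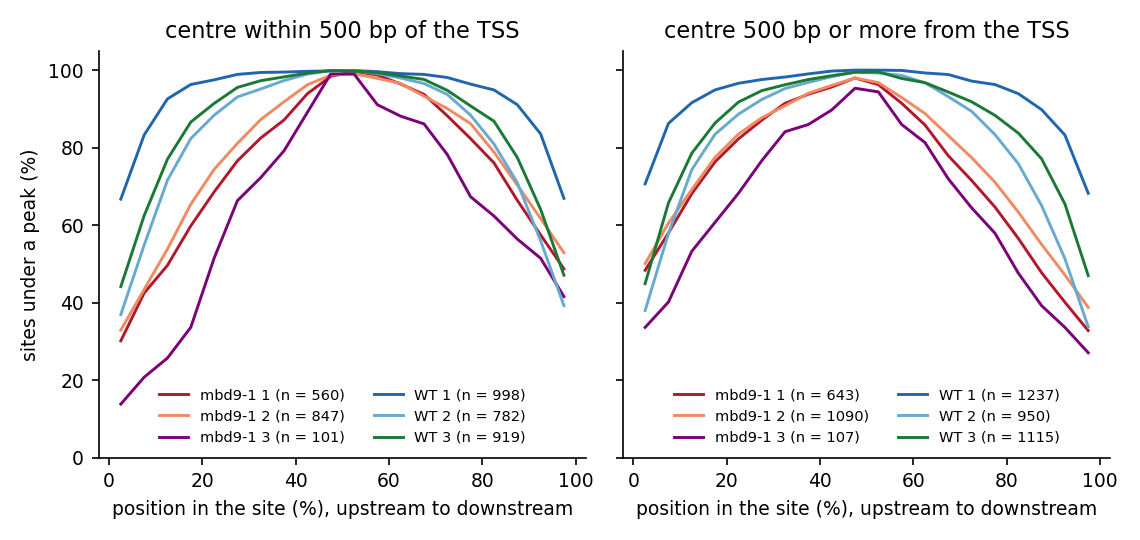
Share of the called partly called sites under a peak (y axis, %) along the site from its upstream to its downstream end (x axis, % of its length), for sites centred within 500 bp of the TSS on the left and farther in on the right, 1 line for each of the 3 mbd9-1 and 3 WT libraries, with n the sites called. In mbd9-1 the upstream edge is lower than the downstream edge on the left and the downstream edge is lower on the right.

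Measured from the TSS, coverage of the 2350 directed sites was highest at 450 or 500 bp in each library, with 48.7%, 68.0% and 20.0% of the sites under a peak in mbd9-1 replicates 1, 2 and 3, against 77.7%, 60.7% and 68.8% in WT. At the TSS itself 19.3%, 29.4% and 6.00% were covered in mbd9-1 and 39.96%, 25.3% and 31.6% in WT. A calling mbd9-1 peak often ran past the end of the WT site: it passed the upstream end at 36.7%, 37.1% and 21.2% of the sites and the downstream end at 36.6%, 40.2% and 26.4%. WT peaks can pass the end of a site only where they were not used to build it, so the values in WT have no equal meaning.

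The kept and bare ends differed in what they were made of. Bases of the kept end were coding for 56.7%, 55.7% and 60.9% in mbd9-1 replicates 1, 2 and 3, against 40.4%, 41.3% and 44.8% of the bare end. Intergenic bases made up 12.8%, 10.8% and 11.5% of the kept end and 19.5%, 19.0% and 21.9% of the bare end. The GC content was 40.6%, 40.2% and 40.3% at the kept end and 37.7%, 37.9% and 37.9% at the bare end. These features, examined after the ends had been scored, were not used by the rule.

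The kept end held more coding sequence on both sides of the 500 bp limit. Near the TSS it made up 52.7%, 51.2% and 57.8% of the kept end and 28.2%, 28.2% and 37.8% of the bare end. Farther in it made up 59.5%, 58.3% and 64.0% of the kept end and 48.7%, 48.9% and 51.9% of the bare end. Near the TSS the kept end held 18.0%, 15.3% and 17.0% intergenic sequence, against 32.9%, 33.6% and 32.4% of the bare end. The 5′ UTR made up 10.11%, 10.9% and 8.39% of the kept end there and 20.3%, 19.4% and 19.9% of the bare end.

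At the held-out WT sites, one-ended mbd9-1 peaks covered an end with 15.8, 14.2 and 16.1 points more coding sequence than the bare end, a mean of 15.4 ± 1.00 in mbd9-1, against 5.95, −0.59 and −4.06 points in WT, a mean of 0.431 ± 5.08 (SD, n = 3 each). The mbd9-1 values are means over 3 sets of sites and the WT values are not, so the 2 SDs are not alike. The groups did not overlap, and the difference of 14.9 points had an exact two-sided permutation p of 0.1, again the smallest possible. It lay between 10.3 and 18.4 points in all 17 alternatives, including 14.6 points without mbd9-1 replicate 3. The mbd9-1 lists were not held out, and the coding contrast had first been seen in them. The p-value is therefore no separate check of that contrast. For GC content the kept-minus-bare difference was 2.78, 2.36 and 2.43 points in mbd9-1 and 2.36, 0.764 and −1.25 points in WT. There the groups touched, with WT replicate 1 reaching the mbd9-1 values, and the exact permutation p was 0.2. How GC content acts on read recovery in each library was not tested, and coding share, GC content and distance from the TSS move together here.

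**Figure D4:**
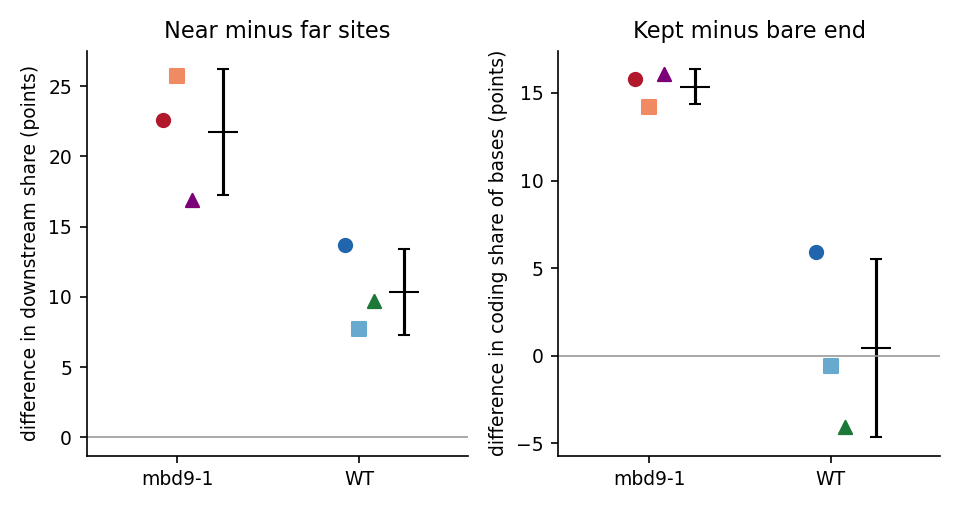
Held-out WT sites, 1 point for each library (circles replicate 1, squares replicate 2, triangles replicate 3) and the mean ± SD as black bars, mbd9-1 left of WT. On the left the near-minus-far difference in downstream share (points) is 16.9 to 25.7 in mbd9-1 and 7.68 to 13.7 in WT, and on the right the kept-minus-bare difference in coding share (points) is 14.2 to 16.1 in mbd9-1 and −4.06 to 5.95 in WT.

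H4Ac, a mark of active chromatin measured here in WT plants only, was called at fewer partly called sites than sites called in no mbd9-1 library. The shares were 19.6%, 16.0% and 16.6% of partly called sites in H4Ac replicates 1, 2 and 3, against 28.9%, 26.1% and 26.6% of sites called in none. Over all WT sites they were 24.8%, 21.8% and 22.3%. The difference was −9.78 points on average, with the same sign in 3 of 3 libraries and an exact paired permutation p of 0.25, the smallest that 3 pairs allow, and −7.38 points without mbd9-1 replicate 3. Sites called in all 3 mbd9-1 libraries were lower still, at 14.4%, 13.2% and 13.2%, so that partly called sites exceeded them by 3.84 points (3 of 3 libraries, exact permutation p of 0.25). That difference was 2.31 points without mbd9-1 replicate 2, 5.34 without mbd9-1 replicate 3, 2.49 in lists without their narrowest peaks, and 7.55 and 6.72 with calls at 30% and 70% coverage. Among the partly called sites, those called once had 21.9%, 18.5% and 19.0%, and those called in 2 libraries 16.5%, 12.6% and 13.3%.

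Site width moved with this order. Partly called sites had a lower H4Ac share than sites called in none within each of 5 width classes, for example 24.1% against 34.4% on average from 600 to 800 bp and 2.46% against 5.35% at 1500 bp or more. The order against sites called in all 3 was not the same in each class: it was 22.2% against 12.2% below 600 bp, and 2.46% against 6.67% at 1500 bp or more. Within one-ended sites, H4Ac covered 15.1%, 12.2% and 12.9% of the kept end and 14.3%, 12.7% and 12.4% of the bare end. The mean difference was 0.288 points with mixed signs and an exact permutation p of 0.5. No difference in H4Ac between the ends was detectable with 3 libraries, which allow no p below 0.25.

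**Figure D5:**
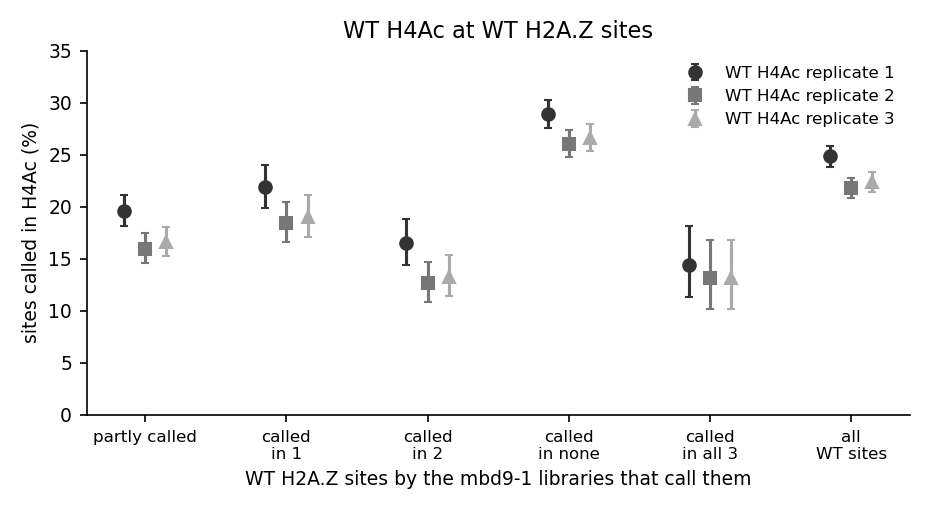
Share of WT H2A.Z sites called in each WT H4Ac library (y axis, %) with Wilson 95% intervals, by the mbd9-1 H2A.Z libraries that called the site (x axis). Partly called sites lie at 16.0% to 19.6%, sites called in none at 26.1% to 28.9%, and sites called in all 3 at 13.2% to 14.4%.

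The 16 genes named next held the most one-sided peaks among sites that were called in all 3 WT and 2 mbd9-1 libraries and lay in a single protein-coding gene with a RefSeq symbol of its own. They were chosen for that, so their values are descriptions. The covered share is that of the whole site. On the downstream side stood AGL98, a MADS-box gene (AT5G39810, chr5:15937800-15938564), where the covered share was 56.5%, 0% and 57.5% in mbd9-1 replicates 1, 2 and 3, against 100%, 60.3% and 70.5% in WT. At TMKL1 (AT3G24660, chr3:9003436-9004321) it was 50.8%, 64.0% and 0% in mbd9-1 and 99.4%, 95.3% and 79.9% in WT. Both sites are centred in coding sequence, 276 and 310 bp from the TSS, and their first bases after the TSS had no mbd9-1 peak.

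At VEL2 (AT2G18880, chr2:8177908-8178744) the site lay 6137 bp from the TSS near the 3′ end of the annotated gene, and 59.6%, 56.8% and 28.3% of it was covered in mbd9-1, against 92.0%, 69.4% and 51.1% in WT. It is one of the exceptions to the relation with distance, being far from the TSS with its downstream part kept. GDU3, whose family is named for glutamine export (AT5G57685, chr5:23366275-23367004), had 60.7%, 58.6% and 39.5% in mbd9-1 and 93.3%, 63.2% and 95.3% in WT. In CPL5 (AT3G19600, chr3:6810959-6811794) the values were 59.2%, 56.2% and 0% in mbd9-1, against 52.5%, 55.1% and 77.5% in WT. At CPL5, 2 of the 3 WT libraries covered less of the site than either calling mbd9-1 library.

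Further downstream cases included an NADPH oxidase gene, RBOH F (AT1G64060), centred 576 bp from the TSS and covered to 67.7% and 56.6% in mbd9-1 replicates 1 and 2 and 0% in replicate 3. TSB2, a tryptophan synthase beta-subunit gene (AT4G27070), was covered to 56.4%, 68.7% and 0%, and SYN1, the gene of a meiotic cohesin subunit (AT5G05490), to 60.5%, 61.2% and 17.5% of a site of 2173 bp. TSB2 was the only one of these 8 called in all 3 H4Ac libraries, at 72.8%, 81.1% and 76.6%.

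On the upstream side, FANCM (AT1G35530, chr1:13089857-13090957) was covered to 51.8%, 58.5% and 49.0% in mbd9-1, against 98.4%, 88.8% and 91.1% in WT. All 3 mbd9-1 peaks began before the site and ended inside it, at positions 13090426, 13090500 and 13090395 in replicates 1, 2 and 3, and replicate 3 fell short of the 50% limit. At EB1C (AT5G67270, chr5:26840315-26842161) 52.1%, 53.9% and 31.5% was covered in mbd9-1 and 97.7%, 99.2% and 96.1% in WT. In scpl22 (AT2G24000, chr2:10213043-10213907), centred 4054 bp from the TSS, the values were 60.6%, 52.0% and 0% in mbd9-1 and 91.7%, 80.7% and 82.8% in WT. None of these 3 sites had a base under an H4Ac peak.

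WOX1, a homeobox gene of leaf blade outgrowth (AT3G18010), was covered to 51.3%, 66.0% and 0%, and the cyclin gene CYCB3;1 (AT1G16330) to 57.8%, 63.7% and 0%. The rhomboid protease gene KOM (AT1G77860) had 52.5%, 60.5% and 31.2%. In 2 genes the calling pair was replicates 2 and 3: PPC3, a phosphoenolpyruvate carboxylase gene (AT3G14940), with 0%, 63.3% and 61.7%, and KT5, annotated as a K+ transporter (AT4G32500), with 0%, 68.1% and 62.7%. All 8 upstream cases were centred more than 500 bp from the TSS, between 514 and 4185 bp, and of the 8 downstream cases 5 were centred nearer than that.

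Among the same sites in genes with a symbol, the 4 widest each held 1 or 2 separate pieces in an mbd9-1 library. WT pieces were not counted there. Of the directed partly called sites a library called, 98.6%, 98.7% and 98.6% held a single peak in mbd9-1 replicates 1, 2 and 3. At ABCA9, an ABC transporter gene (AT5G61730, 3601 bp), each mbd9-1 library had 2 separate pieces, covering 70.3%, 54.1% and 49.6%, and replicate 3 missed the 50% limit by less than 1 point. At CHR34, a chromatin remodelling gene (AT2G21450, 3585 bp), replicate 1 had pieces of 1734 and 495 bp, replicate 2 a piece of 2464 bp and replicate 3 pieces of 483 and 381 bp, all leaving the TSS end bare. RMF, a gene named for reduced male fertility (AT3G61730, 3282 bp), was covered to 64.1%, 76.9% and 27.3%, with the TSS side kept. HAF2, a histone acetyltransferase gene of the TAFII250 family (AT3G19040, 2651 bp), was covered to 74.0%, 59.3% and 14.4%, with 1 of its replicate 1 pieces at each end.

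The partly called sites lay in 2380 protein-coding genes, of which 35 held 2 of them and 1 held 3. Of the 6387 protein-coding genes with a WT site, 37.3% held a partly called one, and this is the level against which gene groups, defined by words in the RefSeq product name, can be read. Heat shock and chaperone genes, which protect and fold proteins, had one in 28 of 51 (54.9%, Wilson interval 41.4 to 67.7). None of the 51 had a site called in all 3 mbd9-1 libraries, but only 362 of the 6387 genes did. Ribosomal protein and ubiquitin ligase genes also had none. HSP21, a chloroplast small heat shock protein gene (AT4G27670), was covered to 71.7%, 96.3% and 0% in mbd9-1 and 100%, 76.1% and 82.0% in WT. HSP17.6II, a cytosolic one (AT5G12020), was covered to 80.2%, 86.6% and 0% in mbd9-1, against 80.3%, 52.6% and 100% in WT. The heat shock factor gene HSFA6B (AT3G22830) had 86.4%, 82.2% and 0% in mbd9-1 and 76.6%, 80.5% and 93.4% in WT. These 3 were picked after their values were seen, from the 11 sites in such genes called in 2 mbd9-1 and all 3 WT libraries.

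F-box genes, which encode substrate receptors of ubiquitin ligases, held a partly called site in 62 of 212 (29.2%, 23.5 to 35.7), and ribosomal protein genes in 6 of 29 (20.7%, 9.85 to 38.4). Kinase genes had 101 of 250 (40.4%), transcription factor or DNA-binding genes 95 of 231 (41.1%), cytochrome P450 genes 38 of 91 (41.8%) and disease resistance genes 22 of 50 (44.0%). Pentatricopeptide genes had 26 of 76 (34.2%), transporter genes 44 of 135 (32.6%), histone-related genes 13 of 30 (43.3%) and ubiquitin ligase genes 2 of 7. The intervals of heat shock and F-box genes left out the 37.3% of all genes, and the others that are given include it. With 12 lists looked at, no list is called particular from this.

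Among 14 genes of the SWR1 complex, its H2A.Z substrate and MBD9, only the H2A.Z genes HTA8 and HTA11 had a WT site. The HTA11 site (AT3G54560, chr3:20196170-20197332) was partly called, with 0%, 97.7% and 0% covered in mbd9-1, against 89.2%, 52.2% and 75.8% in WT. The HTA8 site (AT2G38810) was called in all 3 mbd9-1 libraries. Of the loci the study examined singly by ChIP-qPCR, 2 held a partly called site. Only sites centred inside the gene were counted for these loci. FLC, AT2G34202 and AT1G62760 had a WT site with 0 mbd9-1 calls, and ASK11, At4 and AT5G28410 had no WT site centred in them. The study did measure H2A.Z at ASK11 and At4 by ChIP-qPCR, and it placed an MBD9-dependent site near AT5G28410. AT1G76740 had a site called in all 3 mbd9-1 libraries and another with 0 calls. The study classed the sites near both partly called loci as MBD9-independent. Its ChIP-qPCR found no significant difference in H2A.Z there between WT and mbd9-1. At 4CL2, a phenylpropanoid pathway gene (AT3G21240), the covered share was 82.0%, 70.6% and 0% in mbd9-1 and 100%, 93.6% and 61.9% in WT, with the downstream end kept in both calling libraries. In AT4G15960, an alpha/beta-hydrolase gene, it was 81.4%, 0% and 0% in mbd9-1 and 100%, 66.0% and 0% in WT, again with the downstream end kept.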

How the data were processed

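Chromatin immunoprecipitation sequencing peaks of 9 libraries were used, 3 each of mbd9-1 H2A.Z, WT H2A.Z and WT H4Ac. No list of the 12 other samples was used. Reads had been aligned to TAIR10 with Bowtie2 by the authors, who ran HOMER on each library, with input as control, to call peaks. HOMER's threshold and version: not given in the sources used here. The deposited lists hold start and end positions in bp and no count, score or p-value, so no interval for depth could be given. Peak starts were read as counted from 0 and are printed counted from 1.

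Genes, features and sequences were those of RefSeq on TAIR10.1, and its 5 nuclear chromosomes held all peaks. Sites, calls, ends and directions were computed in Python 3.11.15 with NumPy 2.4.6 and SciPy 1.17.1, and the code was tested on simulated peak lists. Groups were compared over libraries with exact two-sided permutation tests. Same-numbered mbd9-1 and WT libraries did not deviate together, with correlations of −0.0038, −0.016 and 0.034 over 7428 sites, so libraries were not paired.

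The sites, gene lists and tests were chosen with earlier results of these data known. Named sites were called in all 3 WT libraries, lay in 1 protein-coding gene with a symbol and were called in 2 mbd9-1 libraries: the 8 highest and 8 lowest in coverage of the downstream minus the upstream side, and the 4 widest. Loci the study tested singly, sites at the 50% limit and 12 gene lists were added. Sequences are the first 3 of each extreme whose window holds no UTR. The 500 bp split, the base composition and coding share of the ends and the H4Ac values by width were chosen after seeing the data.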

Additional observations from a re-analysis of the deposited data

How the results depend on the processing

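Of 191 recomputed values, 4 changed sign and 17 moved past their tolerance, which was 1.5 times for the number of sites, the Wilson interval for the same-end share and 1 SD between libraries for other untested values. Differences with a test were held only to their sign, since they cannot reach 0.05. The held-out difference in downstream share ran from 0.893 to 6.10 points, and the held-out near-minus-far difference from 5.29 to 17.5. The number of partly called sites, 2620, was 1446 with sites called in all 3 WT lists only, and lay between 1481 (without mbd9-1 replicate 2) and 2201 when single libraries were left out. Their same-end share, 91.4%, ranged from 87.7% (without mbd9-1 replicate 2) to 92.7% then. H4Ac coverage of the kept minus the bare end, 0.288 points, was −0.28 with calls at 70%, −0.22 with sites called in all 3 WT lists only, −0.39 with an end of 10% of the site, and ranged from −0.032 (without WT replicate 3) to 1.49 when single libraries were left out. The near-minus-far difference of the partly called sites, 27.9 points, was 26.1 with reciprocal overlap, 25.6 with an overlap of 1 bp, 21.9 with calls at 70%, 22.5 with sites called in all 3 WT lists only, 21.4 for sites of at least 1000 bp, 25.8 for sites over exactly 1 gene and 17.7 with the split at 800 bp. Without single libraries it ranged between 24.0 and 30.1. The causes were not tested. A WT library left out of the held-out comparison still helped to build the other held-out sites. With a replicate block, libraries paired by number, the held-out downstream share differed by 3.02 points (exact paired permutation p of 0.25, the smallest possible), and the numbers share no source in the labels. Without depth, a bare end cannot be told apart from signal under the caller's limit.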
